A study of Mus musculus with 6 samples.

Results

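The miR-30 family of mouse microRNAs (miRNAs) was examined in bone marrow monocytes (BMMs) with and without super-low-dose LPS. The members are the hairpins Mir30a, Mir30b, Mir30c-1, Mir30c-2, Mir30d and Mir30e, 6 of the 1174 mouse miRNA hairpins used, and the rule that chose them uses their names and no measured value. Reads of at least 18 nt that matched a hairpin exactly, with up to 3 unmatched bases allowed at the 3′ end, were summed for each arm. The 6 hairpins gave 11 counted arms of 963 arms with reads, since Mir30c-1 and Mir30c-2 share their 5p sequence and were counted together there.

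A miRNA hairpin is cut by the nucleases Drosha and Dicer into a duplex of a 5p and a 3p strand, and the strand kept by an Argonaute protein directs it to messenger RNAs. Recognition rests mostly on the seed, the bases near the 5′ end of the miRNA, so miRNAs with the same seed are grouped as a family. The miR-30 family is expressed in many tissues and is known for restraining epithelial to mesenchymal transition and, through Becn1, which encodes the autophagy protein Beclin 1, for an effect on autophagy.

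All samples were cultured BMMs of wild-type C57BL/6 mice. The control group (3 samples) received PBS and the LPS group (3 samples) received 5 pg/ml LPS for 4 h, LPS being a bacterial glycolipid that is sensed by the receptor TLR4. The labels give DMEM as the medium where the methods of the study give RPMI. No source says whether the samples came from separate mice or cultures, so the p-values measure only the spread between these samples, which may be technical.

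The samples held 2201520 to 17691405 reads, of which 61.5 to 70.9% were assigned to hairpins. LPS replicate 2 stood apart from the other 5 samples: it was the deepest, and 18.7% of its distinct sequences were read once, against 67.1 to 74.7% elsewhere. The comparisons of LPS with control are therefore given with and without it. Of the 318 arms that passed the low-count filter, 14.8% lay more than 1 log2 unit from the mean of the other 5 samples in LPS replicate 2, and 59.4% lay outside their range. The 5 miRNAs taken as myeloid markers were read in every sample, with a summed level of 160014 to 216208 RPM (reads per 1000000 hairpin reads). How specific they are to myeloid cells was not tested. Most of the sum was miR-21a-5p, at 122998 to 164575 RPM. In LPS replicate 2, where the sum was highest, miR-146a-5p was read at 55499 RPM against 2826 to 4522 in the other 5 samples. There miR-142a-3p was also highest (7767 against 3745 to 4730), miR-142a-5p was lowest (18131 against 23320 to 27110), and miR-21a-5p and miR-223-3p lay within the range of the others. The 14 markers of other cell types summed to 84.9 to 110 RPM in 5 samples and to 212 in LPS replicate 2, and miR-1a-3p, miR-206-3p, miR-124-3p and miR-144-3p were at 0 in all samples.

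The mature sequences are shown because the family is defined by them and because some members differ so little that reads must be told apart by a single base. RefSeq (GRCm38.p6) held entries for 4 of the 6 members, Mir30a, Mir30c-1, Mir30c-2 and Mir30e. Each is written 5′ to 3′ with bases 2 to 8, the seed, in capitals.
miR-30a-5p: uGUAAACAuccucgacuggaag
miR-30c-5p: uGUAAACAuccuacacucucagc
miR-30e-5p: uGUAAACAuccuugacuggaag
miR-30a-3p: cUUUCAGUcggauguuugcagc
miR-30e-3p: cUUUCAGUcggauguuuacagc
miR-30c-1-3p: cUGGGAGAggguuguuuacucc
miR-30c-2-3p: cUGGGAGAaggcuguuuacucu

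The 5p strands carry 1 seed, GUAAACA, and the 3p strands shown fall into a UUUCAGU pair (miR-30a and miR-30e) and a UGGGAGA pair (the miR-30c hairpins). With positions counted from 1 at the 5′ end and the first-named miRNA giving the first base, miR-30a-5p and miR-30e-5p differ by C13U alone, and their 3p strands by G18A alone. The 3p strands of Mir30c-1 and Mir30c-2 differ by G9A, U12C and C22U. miR-30a-5p differs from miR-30c-5p by C13A, G14C, G18C, G19U and A20C over the 22 bases compared, all beyond the seed. In the RefSeq table of 1679 mature entries, 4 names carry the GUAAACA seed: miR-30a-5p, miR-30c-5p, miR-30e-5p and miR-384-5p.

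The hairpins lie in 3 pairs in the mouse genome (GENCODE M21, GRCm38). Mir30a (chr1:23272269-23272339, plus strand) overlapped no annotated gene, and 19361 bases further lay Mir30c-2 (chr1:23291701-23291784, plus strand) in an exon of the long non-coding RNA Gm27028. Mir30c-1 (chr4:120769534-120769622) and Mir30e (chr4:120772606-120772697) lie on the minus strand, 2983 bases apart, in introns of Nfyc, which encodes a subunit of the transcription factor NF-Y. Mir30b (chr15:68337415-68337510) and Mir30d (chr15:68341208-68341289) lie on the minus strand, 3697 bases apart, in exons of the non-coding transcripts Gm26621 and Gm20732. The hairpin Mir30f is annotated on the strand opposite to Mir30e and gave 0 reads. The RefSeq positions of the mature strands were chr1:23272274-23272295 for miR-30a-5p, chr1:23291714-23291736 and chr4:120769584-120769606 for miR-30c-5p, and chr4:120772660-120772681 for miR-30e-5p.

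The family made up a visible part of the miRNA pool. Its 5p arms took 3.54, 3.90 and 4.24% of the hairpin reads in control replicates 1, 2 and 3. In the LPS samples they took 3.58, 4.83 and 4.32%. The widest 95% Wilson interval among these shares, which covers counting error only, ran from 4.29 to 4.36% (LPS replicate 3), so the samples differed by more than counting error. In whole cultures, a change in the makeup of the cells and a change in RNA per cell cannot be told apart. Reads whose bases 2 to 8 are GUAAACA amounted to 35042 to 47953 RPM. This was the fifth most read of 2150 different 7-base starts, and 0% of these reads came from arms outside the family.

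Within the family the 5p levels had a stable order. miR-30d-5p was the most read member, at 21218, 22929 and 24245 RPM in the control samples and 21645, 25036 and 25044 in the LPS samples, the 11th highest mean of 963 arms. miR-30e-5p followed at 8453, 9644 and 10416 in the control samples and 8488, 9880 and 10330 in the LPS samples. Both were nearly level across the 6 samples, the groups overlapped, and LPS replicate 2 did not stand out.

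miR-30b-5p was read at 2744, 2950 and 3588 RPM in the control samples and at 2752, 8024 and 3548 in the LPS samples. miR-30c-5p was read at 2135, 2956 and 3230 in the control samples and at 2087, 4896 and 3326 in the LPS samples. Here LPS replicate 2 was the highest sample, and the other LPS samples lay within or just beside the control range. miR-30a-5p was the least read 5p member, at 879, 519 and 906 RPM in the control samples and 858, 443 and 982 in the LPS samples. The samples numbered replicate 2 were the lowest of each group for this miRNA, and the groups overlapped. In the order of levels, miR-30d-5p, miR-30e-5p and miR-30a-5p did not overlap with any other 5p member over the 6 samples, whereas the ranges of miR-30b-5p and miR-30c-5p overlapped.

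The 3p strands were read far less. miR-30d-3p was read at 247, 279 and 251 RPM in the control samples and 264, 183 and 263 in the LPS samples. miR-30e-3p was read at 273, 236 and 268 in the control samples and 268, 209 and 301 in the LPS samples. The pair lay at the same level, with LPS replicate 2 the lowest sample for both.

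miR-30b-3p was read at 9.003, 15.2 and 26.7 RPM in the control samples and at 11.1, 55.1 and 24.1 in the LPS samples. As with its 5p strand, LPS replicate 2 was the highest sample. miR-30c-1-3p ranged from 15.2 to 25.4 RPM, miR-30a-3p from 6.05 to 16.0 and miR-30c-2-3p from 1.34 to 4.70, the last on only 2 to 20 reads a sample. The ranges of miR-30b-3p, miR-30c-1-3p and miR-30a-3p overlapped, and miR-30c-2-3p lay below all other members in every sample.

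**Figure D1:**
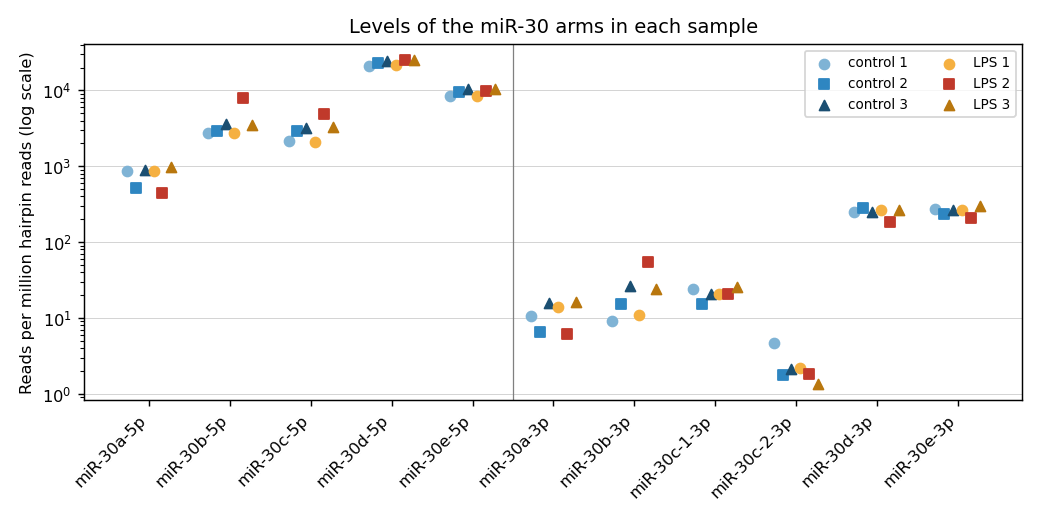
RPM (reads per 1000000 hairpin reads, log scale) of the 11 miR-30 arms in each of the 6 samples, with the 5p arms left of the line and the 3p arms right of it. miR-30d-5p and miR-30e-5p form tight groups at the top, and LPS replicate 2 (red squares) is the highest sample for miR-30b-5p, miR-30b-3p and miR-30c-5p and the lowest for miR-30a-5p.

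The comparison of LPS with control asked whether super-low-dose LPS changed the family. No member was called changed. By the quasi-likelihood test of edgeR, with Benjamini-Hochberg adjusted p-values over 318 arms, 0 of the 10 members tested were called higher and 0 lower. Over all arms tested the percentage called was 0% higher and 0% lower, so the test called nothing in any family, with 7 arms higher and 1 lower at an unadjusted p under 0.05. DESeq2 and limma-voom also called 0 arms, and with each of the 3 tools 0 members had an unadjusted p under 0.05. Of the 10 members, 6 had a log2 fold change above 0 and 4 below, with a median of 0.05 beside 0.01 over all arms tested. miR-30c-2-3p had too few reads for the filter and was not tested.

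The largest fold changes followed LPS replicate 2. miR-30b-3p had a log2 fold change of 0.85 (SE 0.63) with all samples and of -0.06 without LPS replicate 2. For miR-30b-5p the values were 0.61 (SE 0.39) and -0.03. For miR-30c-5p they were 0.29 (SE 0.30) and -0.09. These were the only members whose value with all samples exceeded 0.2 in size, and each moved to the other side of 0 without that sample. The adjusted p (edgeR, Benjamini-Hochberg) was 0.999 for all 10 members.

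The 2 most read members were also the most precisely measured. miR-30d-5p had a log2 fold change of 0.05 (SE 0.11), or -0.02 without LPS replicate 2. miR-30e-5p had one of -0.01 (SE 0.12), and miR-30a-5p one of -0.04 with the larger SE of 0.34. Their 3p strands ranged from -0.16 (SE 0.19) for miR-30d-3p to 0.05 (SE 0.47) for miR-30a-3p. Without LPS replicate 2 edgeR again called 0 members, and the values furthest from 0 were 0.38 for miR-30a-3p and 0.21 for miR-30a-5p. Among the members, 0 of 10 had levels in which the groups did not overlap, against 3.14% of all arms tested.

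**Figure D2:**
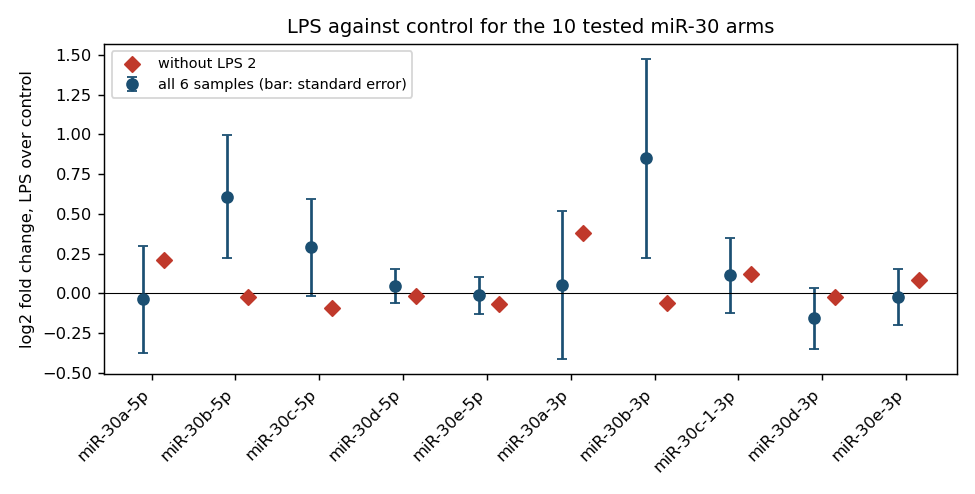
log2 fold change, LPS over control, from edgeR for the 10 tested miR-30 arms, with all 6 samples (circles, bar = standard error) and without LPS replicate 2 (diamonds). The values of 0.61 for miR-30b-5p and 0.85 for miR-30b-3p become -0.03 and -0.06 without that sample, and the bars of miR-30d-5p and miR-30e-5p are the narrowest.

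The summed level of the family gave the same picture. The 5p arms summed to 38937 ± 3479 RPM in control samples (SD, n = 3) and to 42446 ± 6261 in LPS samples (SD, n = 3), a difference of 3509 with an exact two-sided permutation p of 0.4. Without LPS replicate 2 the difference was 593 (exact permutation p = 0.7). The 5p sum was higher with LPS in 3 of 3 same-numbered pairs (exact sign-flip p = 0.25, the smallest that 3 pairs allow). The control and LPS values were 35429 and 35830 RPM in pair 1, 38998 and 48279 in pair 2, and 42385 and 43230 in pair 3. The 3p sum was higher with LPS in pairs 1 and 3 and lower in pair 2. The 3p arms summed to 569 ± 15.1 and 562 ± 79.3 RPM (SD, n = 3; exact permutation p = 0.9), and without LPS replicate 2 the LPS samples were higher by 36.4 RPM (exact permutation p = 0.3). With 3 samples against 3 the smallest exact p is 0.1, so no single comparison of this kind could pass 0.05.

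For each of the 5p members, the share of the family's 5p reads in LPS replicate 2 lay outside the range of the other 5 samples. miR-30d-5p made up 59.9, 58.8 and 57.2% of the family's 5p reads in the control samples and 60.4, 51.9 and 57.9% in the LPS samples. miR-30e-5p made up 23.9, 24.7 and 24.6% and then 23.7, 20.5 and 23.9%. The shares of both were lowest in LPS replicate 2.

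The share of miR-30b-5p was 7.57 to 8.47% in the 3 control samples and LPS replicates 1 and 3, and 16.6% in LPS replicate 2. The share of miR-30c-5p was 5.83 to 7.69% in those 5 samples and 10.1% in LPS replicate 2. miR-30a-5p held 1.33 to 2.48% in the 5 samples and 0.917% in LPS replicate 2. In the test of LPS against control, the difference in share was 2.91 percentage points for miR-30b-5p with all samples and 0.02 without LPS replicate 2. Over the 11 shares tested, 5p and 3p, the exact permutation p ran from 0.2 to 0.9 and the adjusted p from 0.88 to 0.90. Without LPS replicate 2 the exact permutation p ran from 0.3 to 1. The share of miR-30e-5p was lower with LPS in 3 of 3 same-numbered pairs (exact sign-flip p = 0.25, the smallest that 3 pairs allow). For every other share the exact sign-flip p was 0.5 or more.

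**Figure D3:**
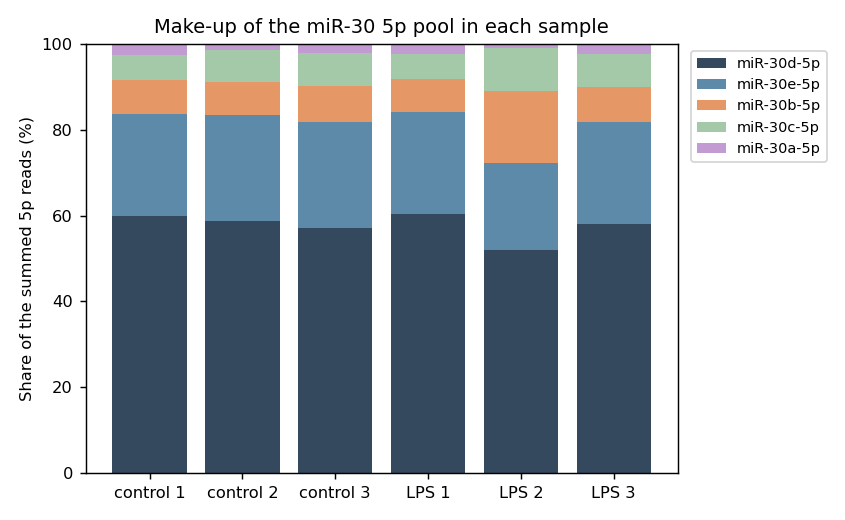
Share (%) of each of the 5 mature sequences in the summed miR-30 5p reads of each sample, stacked to 100%. The columns of the other 5 samples look alike, with miR-30d-5p at 57.2 to 60.4%, and in LPS replicate 2 the miR-30b-5p segment is 16.6% in place of 7.57 to 8.47%.

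The pair on chromosome 15 had another ratio in LPS replicate 2 than in the other samples. The ratio of miR-30b-5p to miR-30d-5p, was 0.127 to 0.148 in 5 samples and 0.321 in LPS replicate 2. The ratio of the 3p strands of the same pair was 0.0365 to 0.106 in the 5 samples and 0.302 in LPS replicate 2. Both strands of Mir30b were thus high against both strands of Mir30d in that sample.

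For the pair on chromosome 4 the ratios of both strands in LPS replicate 2 also lay above the range of the other samples. The ratio of miR-30c-5p to miR-30e-5p was 0.246 to 0.322 in the 5 samples and 0.496 in LPS replicate 2. The ratio of miR-30c-1-3p to miR-30e-3p was 0.0644 to 0.0874 and 0.0988. The level of miR-30c-1-3p itself was 20.6 RPM in LPS replicate 2, within the 15.2 to 25.4 RPM of the other samples. That of miR-30e-3p was lowest there, at 209 RPM. The miR-30c-5p reads come from Mir30c-1 and Mir30c-2 together and cannot be divided between them. By contrast the ratio of miR-30d-5p to miR-30e-5p, the most read members from different chromosomes, lay between 2.33 and 2.55 in all 6 samples.

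Against the mean of the other 5 samples, on the TMM-normalised log2 scale, LPS replicate 2 was higher by 1.64 for miR-30b-3p, by 1.36 for miR-30b-5p and by 0.83 for miR-30c-5p. These ranked 19th, 22nd and 46th highest of 318 arms. It differed by -0.91 for miR-30a-5p and -0.94 for miR-30a-3p, ranks 307 and 308. In all, 2 of the 10 members lay past 1 log2 unit and 8 of 10 lay outside the range of the other 5 samples, beside 14.8% and 59.4% of all arms. Among the markers of other cell types, those of epithelium summed to 63.0 to 79.5 RPM in the 5 samples and to 152 in LPS replicate 2, although miR-141-3p of that list was read at 15.4 to 38.0 RPM in the 5 samples and at 20.6 in LPS replicate 2. The neuron markers summed to 2.12 to 3.34 RPM in the 5 samples and to 0.367 in LPS replicate 2. The lymphocyte marker miR-150-5p was read at 14.9 to 23.3 and at 49.3, and the liver marker miR-122-5p gave 1 read in control replicate 3 and 20 in LPS replicate 2. Cell content was not measured. Whether other cell types or the greater depth had a part in the values of miR-30b and miR-30c was not tested.

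Among the 132 arms read at a mean of at least 100 RPM, the pattern of the summed miR-30 5p arms over the 6 samples was nearest to that of miR-19b-3p. The root mean square difference of the centred log2 levels was 0.05. Next were let-7d-3p (0.06), miR-652-3p (0.07), miR-15a-5p (0.08) and miR-29b-3p (0.09). miR-19b-3p was read at 642, 687 and 792 RPM in the control samples and 644, 829 and 817 in the LPS samples, with the same low replicate 1 and high LPS replicate 2 as the family sum. All 5 were measured in the same 6 libraries as the family.

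The 5p strand prevailed in every hairpin. The 3p strands made up 0.974 to 1.59% of the family's reads. The log2 ratio of 5p to 3p reads was positive for each of miR-30a, miR-30b, miR-30c, miR-30d and miR-30e in each sample. miR-30e had the largest 3p share, 2.07 to 3.13% of its reads. miR-30b had 0.327 to 0.738%, miR-30c 0.456 to 1.32%, miR-30d 0.724 to 1.21% and miR-30a 1.19 to 1.70%. Over 50 hairpins with both arms counted, the median share of the lesser arm was 1.42% (interquartile range 0.377 to 5.86%). The mean 3p shares of miR-30a, miR-30b, miR-30c, miR-30d and miR-30e lay within this range.

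For miR-30d the log2 ratio of 5p to 3p was 6.42, 6.36 and 6.59 in the control samples and 6.36, 7.10 and 6.58 in the LPS samples. For miR-30e it was 4.95, 5.35 and 5.28 in the control samples and 4.98, 5.56 and 5.10 in the LPS samples. LPS replicate 2 was the highest sample for these and for miR-30c (7.77 against 6.22 to 7.45), but not for miR-30b, where control replicate 1 was highest at 8.25, or miR-30a. No ratio differed between LPS and control beyond the spread, with differences of -0.19 to 0.22 (exact permutation p 0.4 to 0.9, adjusted over 5 ratios to 0.90). Without LPS replicate 2 the differences ran from -0.25 to 0.01 (exact permutation p 0.4 to 1). Of the 513 reads of the miR-30c 3p strands, 49 came from Mir30c-2, or 5.00 to 16.4% in a sample, and the Wilson intervals of the samples overlapped.

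**Figure D4:**
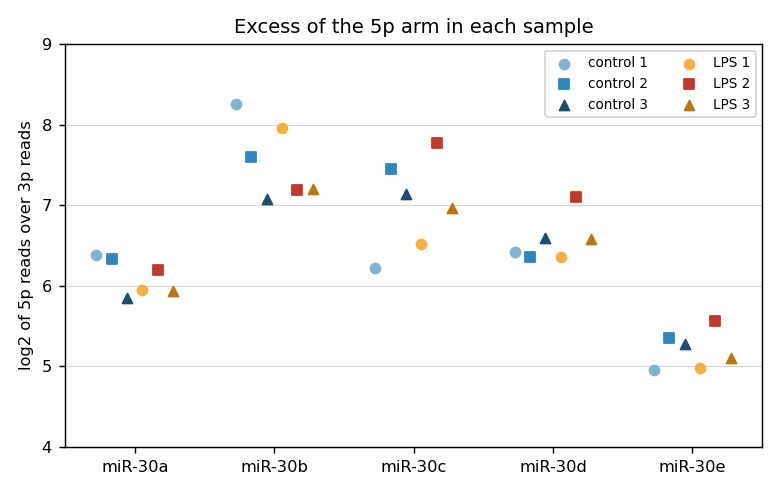
log2 of 5p reads over 3p reads for each miR-30 hairpin in each of the 6 samples (Mir30c-1 and Mir30c-2 together). All values lie above 4, miR-30e is lowest at 4.95 to 5.56, and LPS replicate 2 is the highest sample for miR-30c, miR-30d and miR-30e.

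The ends of the reads were next compared. The seed of a miRNA is set by its 5′ end, and the 5p strands began almost always at the same base. The main start held 99.98% of the reads of miR-30b-5p, 99.95% of miR-30c-5p, 99.74% of miR-30d-5p and 96.9% of miR-30e-5p, as means over the 6 samples, beside a median of 99.1% over the 70 arms with at least 1000 reads in every sample. For miR-30e-5p, 2.27 to 3.56% of reads began 1 base later, which moves the seed by 1 base. Among the 3p strands, the most read bases 2 to 8 stood in a mean of 96.0% (miR-30e-3p) to 100% (miR-30c-2-3p) of the reads for 4 of 6. They stood in 78.3 to 81.9% of miR-30d-3p reads and in 34.8 to 72.7% of miR-30a-3p reads, the latter on 11 to 66 reads a sample.

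The most read sequences of the 5p strands ran past the RefSeq mature sequences at the 3′ end. They are shown as read, in DNA letters, with unmatched 3′ bases in capitals, and with the T-tailed and late-starting forms of miR-30e-5p.
miR-30a-5p, most read: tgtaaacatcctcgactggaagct
miR-30c-5p, most read: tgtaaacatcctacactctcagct
miR-30e-5p, most read: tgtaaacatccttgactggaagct
miR-30e-5p, T-tailed: tgtaaacatccttgactggaagctT
miR-30e-5p, starting 1 base later: gtaaacatccttgactggaagct

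These 24-base reads made up 74.5% of miR-30a-5p reads, 91.1% of miR-30c-5p reads and 85.0% of miR-30e-5p reads on average, whereas the RefSeq entries are 22, 23 and 22 bases long. The T-tailed form was 4.83% and the late-starting form 2.41% of miR-30e-5p. The main 3′ end lay at base 24 for miR-30a-5p, miR-30c-5p, miR-30d-5p and miR-30e-5p and at base 22 for miR-30b-5p. It held 97.0% of miR-30b-5p, 94.0% of miR-30c-5p, 93.2% of miR-30e-5p and 76.9% of miR-30d-5p reads, beside a median of 68.8% over the 70 arms.

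miR-30d-5p had the most varied 3′ end of the 4 members tested. Its main end held 79.6, 79.9 and 76.9% of reads in the control samples and 79.9, 68.9 and 76.5% in the LPS samples. Ends at base 22 held 4.45 to 6.11% in 5 samples and 11.3% in LPS replicate 2. The share of the main end in LPS replicate 2 differed from the mean of the other samples by -9.66 percentage points, while the median over the 70 arms was -0.36 (interquartile range -2.99 to 1.78).

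Unmatched 3′ tails were counted on the 4 members tested, all 5p strands. They stood on 2.26% of miR-30b-5p, 4.27% of miR-30c-5p, 6.02% of miR-30d-5p and 6.54% of miR-30e-5p reads, all below the median of 13.7% over the 70 arms. Tails starting with T, the letter read for uridine, made up most of those on miR-30e-5p (5.57% of reads) and miR-30d-5p (4.26%). On miR-30b-5p, tails starting with A (1.09%) and T (0.732%) were both few.

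No end variant passed a test of LPS against control. Over 16 tests of 4 members and 4 measures, the exact permutation p was 0.1 to 1 and the adjusted p at least 0.873, and without LPS replicate 2 the exact permutation p was again 0.1 to 1. In 1 of 16 the groups did not overlap, beside 3.21% of the arm and measure combinations over the 70 arms. This was the mean length of miR-30c-5p, 24.0145 ± 0.0049 nt in control and 24.0001 ± 0.0058 nt in LPS samples (SD, n = 3), a difference of -0.014 nt with the smallest exact p the design allows, 0.1. It was lower in 3 of 3 same-numbered pairs and by -0.0117 nt without LPS replicate 2. The main 3′ end of miR-30d-5p differed by -3.72 percentage points with all samples and by -0.620 without LPS replicate 2. miR-30a-5p was not tested because control replicate 2 had 888 reads of it.

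**Figure D5:**
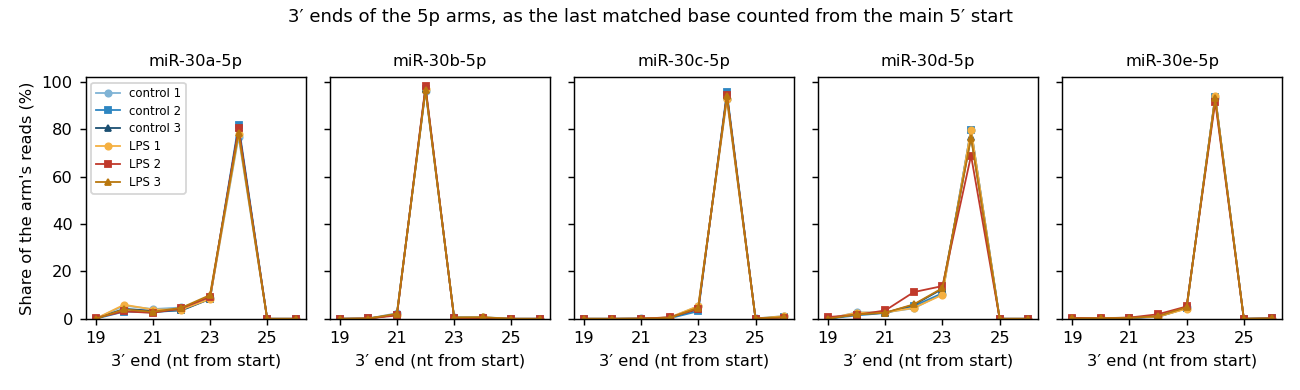
Share (%) of the reads of each miR-30 5p arm by the position of the last matched base, counted in nt from the main 5′ start, in each of the 6 samples. miR-30a, miR-30c, miR-30d and miR-30e peak at 24 nt and miR-30b-5p at 22 nt, and for miR-30d-5p the LPS replicate 2 line is lower at 24 nt (68.9%) and higher at 22 nt (11.3%).

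Since the main reads of miR-30a-5p and those of miR-30d-5p and miR-30e-5p differ at a single base, the rate of single-base changes was measured. Of the possible changes to a main read, the median was seen at 0.0042 to 0.0094% of the reads of that main sequence, and the highest at 0.10 to 0.39%. The main read of miR-30a-5p was seen 10677 times over the 6 samples. At the highest rate seen for miR-30d-5p, changes of its main read would give 890 such reads, and at that of miR-30e-5p 545. The 3p strands of Mir30a and Mir30e also differ at a single base, and the main read of miR-30a-3p was seen 71 times against 3913 for miR-30e-3p, or 1.81%. A single read of the 6 samples matched miR-30b-5p and miR-30c-5p equally well.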

How the data were processed

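Small RNA of 6 samples was sequenced. Per the methods and labels, the authors prepared TruSeq small RNA libraries, sequenced them on a HiSeq 1000 and trimmed adaptors with perl scripts and Btrim64. The deposited files hold raw counts of each distinct trimmed read of 11 to 40 nt, with no miRNA names or normalization. The labels name the mm9 build. The later quantification by the authors was not used here.

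Reads of at least 18 nt were matched to 1174 hairpins of GENCODE M21 (GRCm38) from the 5′ end, with at least 18 matched bases and at most 3 unmatched 3′ bases, and a read centred before the hairpin midpoint was counted as 5p, the rest as 3p. Arms sharing at least 50% of their reads were merged. Levels are RPM, reads per 1000000 hairpin reads, each read standing for 1 molecule, and library preparation may capture sequences unequally. The counts over all arms were filtered by filterByExpr, normalised by TMM and tested with edgeR 4.0.16 (quasi-likelihood, Benjamini-Hochberg, threshold 0.05) in R 4.3.3. DESeq2 1.42.0 and limma 3.58.1 (voom) were alternatives. The fit was tested on simulated data with less spread between samples than these data and larger changes than those of the miR-30 arms. That test therefore does not show how well the fit would find small changes here. Family sums, shares, log2 ratios and end variants (arms with at least 1000 reads in every sample) were compared by exact two-sided permutation tests in Python 3.11.15 with scipy 1.17.1. Wilson 95% intervals cover counting error only. LPS replicate 2 was compared with a pseudocount of 1.

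All arms of the 6 hairpins are named, with the cell type markers and the 5 arms of other hairpins nearest in pattern. The members, lists and tests were chosen with earlier results of these data known.

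Samples with the same replicate number deviated together (r = 0.59, 0.26 and 0.28 over 318 arms for numbers 1, 2 and 3, against -0.39 to 0.15 for different numbers). The deviations were taken from the group means, so they cancel within each group. A positive r for a pair therefore pushes the other pairs of those samples down, and the contrast is partly built in. Every same-numbered pair exceeded 0.1, and the numbers were taken to pair the samples. Control replicate 3 with LPS replicate 2 also exceeded that limit (r = 0.15), so the limit alone does not set the pairs apart. The main edgeR fit and the exact permutation tests do not use the pairing. Alternatives were other normalizations and filters, exact matches, reads of at least 20 nt, shared reads left out, all reads as the denominator, distinct sequences counted once, the replicate number as a block and each sample left out in turn.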

Additional observations from a re-analysis of the deposited data

How the results depend on the processing

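Under every setting of the edgeR fit, DESeq2 and limma-voom, 0 miR-30 arms were called higher and 0 lower. Without the low-count filter, edgeR called 20 of 963 arms higher but no member, with 2 members at an unadjusted p under 0.05 (miR-30b-5p, adjusted p = 0.0676, and miR-30b-3p, adjusted p = 0.331). Without LPS replicate 1, 1 member had an unadjusted p under 0.05 (miR-30b-5p, edgeR, adjusted p = 0.386). The replicate block changed no call: 0 arms were called, the summed 5p level differed by the same 3509 RPM, and its paired exact sign-flip p was 0.25, the smallest that 3 pairs allow.

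No other setting moved a result past a threshold, but differences that had not passed a test changed sign, among them the largest differences in share, those of miR-30d-3p, miR-30b-5p and miR-30b-3p. Under the replicate block without pair 2, an alternative chosen after seeing the data, the difference was 29.0 RPM for the 3p sum. It was then 0.0239, -0.162, -0.0638 and 0.625 percentage points for the shares of miR-30a-5p, miR-30b-5p, miR-30c-5p and miR-30d-5p, and -0.213, -0.0919 and 0.369 for those of miR-30b-3p, miR-30c-1-3p and miR-30d-3p. The log2 ratio of 5p to 3p then differed by -0.0428 for miR-30d and -0.0739 for miR-30e. The log2 fold change was then 0.0375 for miR-30a-5p, -0.0061 for miR-30b-5p, 0.0809 for miR-30d-3p and 0.0607 for miR-30e-3p. With each distinct sequence counted once, mean length differed by 0.0702 nt (miR-30b-5p) and 0.146 nt (miR-30e-5p), the tail share by 0.409 points (miR-30b-5p) and the main start by 0.179 (miR-30d-5p) and -1.83 points (miR-30e-5p). The log2 fold change of miR-30a-3p was -0.223 with limma-voom, -0.0090 with upper-quartile scaling and -0.0420 with exact matches only. That of miR-30d-5p was -0.0469 with upper-quartile scaling. That of miR-30e-5p was 4.3e-05 with DESeq2, 0.0095 with library totals, 0.0129 without the filter and 0.0083 with at least 10 reads in every sample. The cause of these changes was not tested.

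Leaving out each sample in turn changed the sign of these differences and no call. The log2 fold change ran from -0.204 to 0.382 for miR-30a-3p, -0.245 to 0.207 for miR-30a-5p, -0.0584 to 1.29 for miR-30b-3p, -0.0253 to 0.883 for miR-30b-5p, -0.0334 to 0.317 for miR-30c-1-3p, -0.0909 to 0.544 for miR-30c-5p, -0.0158 to 0.0998 for miR-30d-5p, -0.106 to 0.0821 for miR-30e-3p and -0.0647 to 0.0539 for miR-30e-5p. The log2 ratio of 5p to 3p ran from -0.476 to 0.114 for miR-30b, -0.212 to 0.426 for miR-30c and -0.152 to 0.138 for miR-30e. The shares ran, in percentage points, from -0.199 to 0.57 for miR-30a-3p, -0.448 to 0.35 for miR-30a-5p, -0.103 to 4.74 for miR-30b-3p, -0.316 to 1.84 for miR-30c-5p, -3.73 to 0.542 for miR-30d-5p and -0.969 to 1.76 for miR-30e-3p. The 3p sum ran from -41.3 to 36.4 RPM. The end variants ran from -0.053 to 0.729 for miR-30b-5p main 3′ end, -0.0226 to 0.00562 for miR-30b-5p main 5′ start, -1.27 to 0.267 for miR-30c-5p main 3′ end, -0.799 to 0.18 for miR-30c-5p unmatched 3′ tail, -0.317 to 0.217 for miR-30d-5p unmatched 3′ tail, -0.0252 to 4.11e-05 for miR-30e-5p mean length and -0.435 to 0.51 for miR-30e-5p unmatched 3′ tail (points, or nt for length). For miR-30b-5p, miR-30b-3p, miR-30c-5p and miR-30d-5p, LPS replicate 2 was the only sample whose removal changed the sign of the fold change. miR-30b-3p and miR-30a-3p, with under 100 reads in most samples, had the largest standard errors of the fold change. Low counts did not always go with a large standard error. miR-30c-1-3p, also under 100 reads in most samples, had one of 0.24, below the 0.39 of the far more read miR-30b-5p. With 3 samples a group the exact tests cannot pass 0.05.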
